A study of Mus musculus with 13 samples.

Results

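The semaphorins, their plexin receptors and the neuropilin co-receptors were followed across 3 regions of the embryonic mouse urinary tract and a newborn reference. Members were all probe sets, the short-oligonucleotide sets that stand for a gene on the array, whose only gene symbol is a numbered semaphorin, a plexin, Nrp1 or Nrp2. They came to 78 of 34945 single-symbol probe sets and 31 of the 15019 genes tested. The probe set with the highest mean log2 intensity stood for each gene. The 31 genes are 7 secreted class 3 semaphorins, 13 membrane semaphorins of classes 4 to 7, 9 plexins and 2 neuropilins, so 20 ligands and 11 receptors. The rule reads symbols and the mean level over all arrays, and the family itself was picked with earlier results of these data known.

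The bladder (3 arrays, replicates 2, 6 and 8), the urogenital sinus (4 arrays, 1, 2, 6 and 7) and the urethra (3 arrays, 1, 2 and 6) were taken from day 14 embryos on the FVB/N strain. The mothers were FVB/N females mated to SMGA/EGFP transgenic males, whose transgene reports smooth muscle gamma-actin (Actg2) with green fluorescence. Fluorescence guided the dissection, and the sinus was the dark region between the fluorescent bladder and urethra, so smooth muscle content differs between the regions by design. The newborn reference (3 arrays) was wild-type FVB/N whole mouse at postnatal day 1, pooled from 4 males and 4 females and carrying no transgene. Region samples were not pooled, the sex of the embryos is unknown, and replicates 1 and 2 were at Theiler stage 21 and the others at stage 22. Nothing in the labels assigns the arrays to separate embryos, and a p-value here reflects only the spread between the samples measured.

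Semaphorins are extracellular guidance cues that steer axons, endothelial cells and migrating mesenchyme, and many of them repel. Class 3 semaphorins are secreted and mostly bind a neuropilin, which holds the ligand while a plexin carries the signal into the cell. Sema3e is an exception that binds Plxnd1 directly, and membrane semaphorins bind plexins without a neuropilin. Neuropilins also bind VEGF, which ties the family to blood vessels as well as to the nerves that grow into the bladder and urethra.

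Values are log2 intensities, a difference of 1 being a doubling. The median intensity of an array was 142 to 238 for bladder, 259 to 389 for sinus, 221 to 378 for urethra and 278 to 455 for reference. Actg2 lay between 13.51 and 13.97 in the bladder, 12.89 and 13.65 in the urethra, and 7.99 and 10.77 in the sinus, which follows the dissection. Neuronal markers stood apart: the mean of 9 of them was 7.08 on sinus array 1 and 10.71 to 12.42 on the other 3 sinus arrays. It was 7.20 on urethra array 1 against 9.57 and 9.69 on the others, and 6.89 to 8.66 in the bladder. Hbb-bh1, an embryonic globin, was highest on the same arrays, at 15.04 on sinus array 1 and 14.51 on urethra array 1. In bulk tissue, fewer cells of a type and less RNA per cell cannot be told apart.

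All 31 members passed the filter on low values, which asks for a level over 7.39 on at least 3 arrays. Of them, 22 were over that level on all 13 arrays and 9 were not. The filter level was missed on every bladder array by Plxnb3 and Sema7a, which lay at 5.65, 6.76 and 6.01 and at 6.78, 6.95 and 6.14 there. Values of 5.65 are at the floor set for the dimmest probe sets, and 5 members had at least 1 array there.

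**Figure D1:**
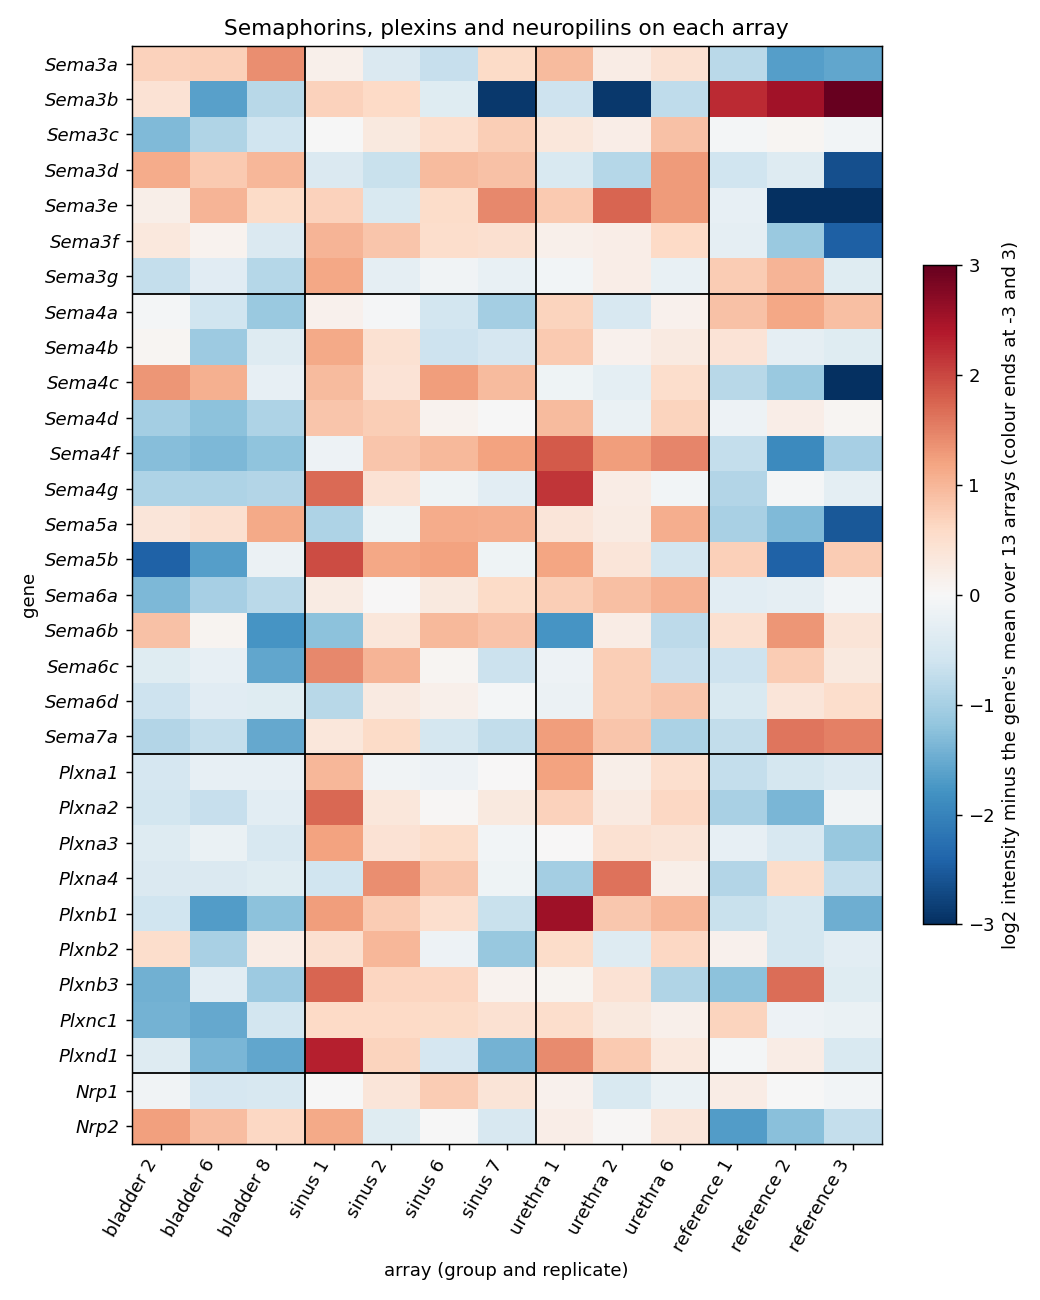
Level of each of the 31 genes (vertical axis) on each of the 13 arrays (horizontal axis), coloured by log2 intensity minus the gene's mean over all arrays, with lines between groups and between secreted ligands, membrane ligands, plexins and neuropilins. Sema4f, Sema6a and Plxnc1 were blue on all 3 bladder arrays, and Sema3e was bluest on reference arrays 2 and 3.

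The first comparison sets the fluorescent bladder against the dark urogenital sinus. Of the 31 members, 4 were lower in the bladder and 0 were higher. The 4 were the secreted ligand Sema3c, the membrane ligands Sema4f and Sema6a, and the receptor Plxnc1. Over all genes 1.73% were called lower and 0.812% higher, that is, 260 and 122 genes. At an unadjusted p under 0.05, 15 of the 31 members and 17.2% of all genes passed in either direction. The calls use an adjusted p under 0.05 from limma, a linear model with a shared variance estimate.

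The bladder against the urethra compares both fluorescent regions and shares its bladder arrays with the first comparison. Here 5 members were lower in the bladder and 0 higher, against 2.62% lower and 1.71% higher over all genes. They were Sema3c, Sema4f, Sema6a, Plxnc1 and the receptor Plxnb1. At an unadjusted p under 0.05, 13 members and 24.3% of all genes passed. The urethra against the sinus gave 0 called members, and only 0.00666% of all genes were called in each direction, 1 gene each way. At an unadjusted p under 0.05, 3 members and 1559 genes passed in that comparison.

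Sema4f is a membrane ligand known from the nervous system. Its level (probe set 1439768_x_at, chromosome 6) was 10.42, 10.34 and 10.49 on the bladder arrays, 11.54, 12.52, 12.67 and 12.91 on the sinus arrays, 13.54, 12.95 and 13.16 on the urethra arrays and 10.99, 9.79 and 10.71 on the reference arrays. All 3 bladder arrays lay below every sinus and urethra array, and the bladder range was the narrowest of the 3 regions. The mean was 10.41 ± 0.08 (SD, n = 3) in the bladder, 12.41 ± 0.60 (SD, n = 4) in the sinus and 13.22 ± 0.30 (SD, n = 3) in the urethra. Bladder minus sinus was -2.00 (SE 0.32, adjusted p = 0.0152), a fold of 3.99. Bladder minus urethra was -2.80 (SE 0.34, adjusted p = 0.00413), a fold of 6.97. The urethra ranges lay above the sinus ranges without overlap, yet the difference of 0.80 (SE 0.32, adjusted p = 0.433) did not pass.

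Sema6a is a membrane ligand of Plxna2 and Plxna4. Its level (1436458_at, chromosome 18) was 8.37, 8.73 and 8.90 on the bladder arrays, 9.95, 9.73, 10.01 and 10.29 on the sinus arrays, 10.46, 10.63 and 10.76 on the urethra arrays and 9.40, 9.44 and 9.64 on the reference arrays. The groups stood in the order bladder, reference, sinus, urethra with no overlap between neighbours. Bladder minus sinus was -1.33 (SE 0.27, adjusted p = 0.036) and bladder minus urethra -1.95 (SE 0.29, adjusted p = 0.00879), folds of 2.51 and 3.86. The step from sinus to urethra, 0.62 (SE 0.27, adjusted p = 0.469), did not pass.

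Sema3c is a secreted ligand that works through Nrp1 and Nrp2 and is known from the developing heart. Its level (1429348_at, chromosome 5) was 11.84, 12.26 and 12.58 on the bladder arrays, 13.15, 13.45, 13.67 and 13.89 on the sinus arrays, 13.50, 13.35 and 14.05 on the urethra arrays and 13.10, 13.22 and 13.07 on the reference arrays. The bladder lay below the other groups, and the sinus and urethra overlapped. Bladder minus sinus was -1.31 (SE 0.27, adjusted p = 0.0368) and bladder minus urethra -1.41 (SE 0.28, adjusted p = 0.0275), folds of 2.49 and 2.66.

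Plxnc1 is the receptor of Sema7a. Its level (1423213_at, chromosome 10) was 9.02, 8.92 and 9.90 on the bladder arrays, 11.04, 11.05, 11.02 and 10.91 on the sinus arrays, 10.98, 10.73 and 10.59 on the urethra arrays and 11.11, 10.29 and 10.24 on the reference arrays. The 4 sinus arrays agreed within 0.07 (SD), and all region arrays outside the bladder were higher than every bladder array. Bladder minus sinus was -1.72 (SE 0.28, adjusted p = 0.0176) and bladder minus urethra -1.48 (SE 0.30, adjusted p = 0.0287), folds of 3.3 and 2.8. Sema7a itself was under the filter level on all bladder arrays and on 2 of 4 sinus arrays and 1 of 3 urethra arrays, its ranges overlapped, and neither difference passed (adjusted p = 0.398 against the sinus and 0.18 against the urethra).

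Plxnb1, the receptor of Sema4d, had the widest gap among the receptors. Its level (1435254_at, chromosome 9) was 10.51, 9.43 and 9.88 on the bladder arrays, 12.37, 11.87, 11.61 and 10.45 on the sinus arrays, 13.65, 11.93 and 12.11 on the urethra arrays and 10.46, 10.59 and 9.65 on the reference arrays. Urethra array 1 was the highest of all, and the bladder range crossed the sinus range at sinus array 7. Bladder minus urethra was -2.62 (SE 0.57, adjusted p = 0.0356), a fold of 6.16. Bladder minus sinus, -1.64, was not called (adjusted p = 0.153).

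**Figure D2:**
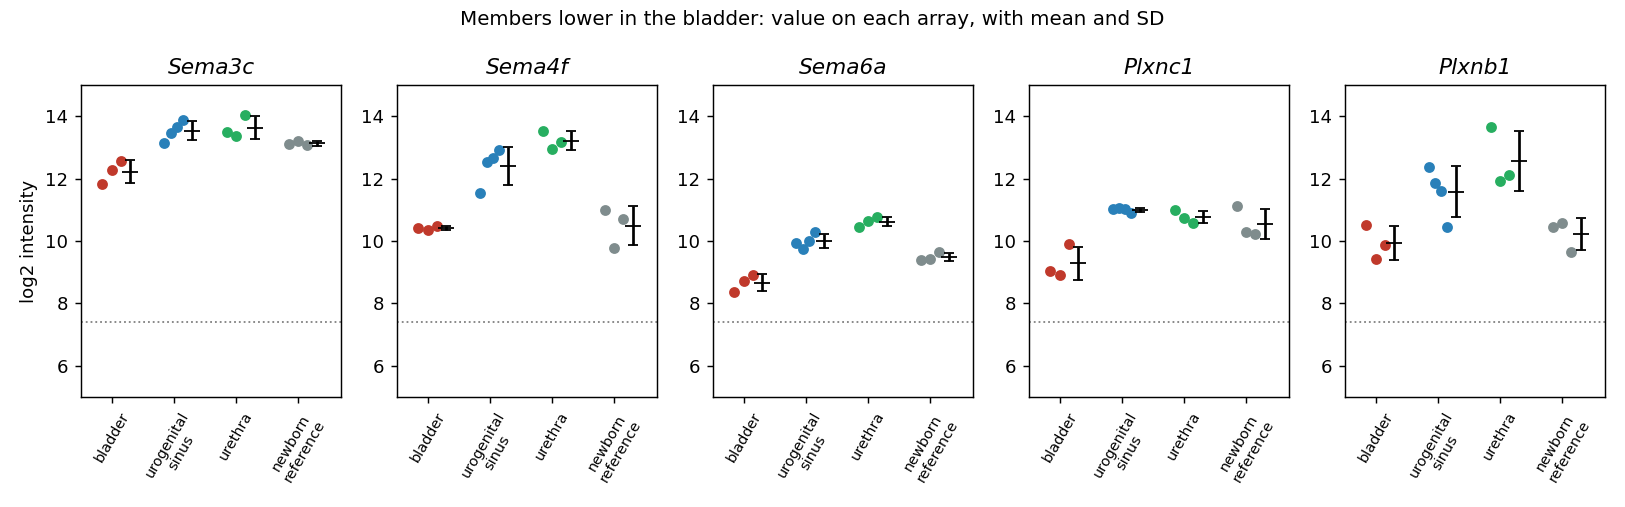
Level on each array (points, log2 intensity) of the 5 members called lower in the bladder in at least 1 comparison, with the group mean and SD (bars) and the filter level of 7.39 (dotted line). For Sema4f the bladder points lie between 10.34 and 10.49 and the urethra points between 12.95 and 13.54.

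The promoter windows of 4 of the 5 genes called lower in the bladder are shown because these genes were low together there, and that of Sema6a is not printed. Each is the 250 bases before the RefSeq gene start in GRCm38.p6, 5' to 3' on the gene's strand, and capitals mark a GC box (GGGCGG) or a CCAAT box on either strand. The windows are chr5:17574566-17574815 (plus strand), chr6:82939770-82940019 (minus), chr10:94944846-94945095 (minus) and chr9:109095186-109095435 (plus).
Sema3c: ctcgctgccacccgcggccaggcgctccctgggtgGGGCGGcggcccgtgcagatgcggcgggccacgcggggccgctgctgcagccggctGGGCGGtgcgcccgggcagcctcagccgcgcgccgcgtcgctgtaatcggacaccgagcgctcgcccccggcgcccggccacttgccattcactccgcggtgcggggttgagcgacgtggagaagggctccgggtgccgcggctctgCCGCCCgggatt
Sema4f: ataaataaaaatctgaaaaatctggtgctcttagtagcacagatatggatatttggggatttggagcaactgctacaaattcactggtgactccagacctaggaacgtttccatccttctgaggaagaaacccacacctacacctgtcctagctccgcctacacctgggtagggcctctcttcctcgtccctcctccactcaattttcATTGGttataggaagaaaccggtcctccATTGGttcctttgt
Plxnc1: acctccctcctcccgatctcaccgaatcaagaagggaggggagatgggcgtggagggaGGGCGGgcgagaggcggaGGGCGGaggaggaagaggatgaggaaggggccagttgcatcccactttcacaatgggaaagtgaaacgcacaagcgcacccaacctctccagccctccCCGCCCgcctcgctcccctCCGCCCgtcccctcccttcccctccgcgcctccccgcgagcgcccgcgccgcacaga
Plxnb1: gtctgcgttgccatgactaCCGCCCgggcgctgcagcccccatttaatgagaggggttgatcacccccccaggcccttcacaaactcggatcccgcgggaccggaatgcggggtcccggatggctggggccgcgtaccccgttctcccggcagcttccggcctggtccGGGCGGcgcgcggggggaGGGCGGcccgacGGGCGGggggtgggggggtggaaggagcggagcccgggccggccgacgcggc
The windows of Sema3c, Plxnc1 and Plxnb1 held 3, 4 and 4 GC boxes, with a GC content of 78.4%, 68.8% and 75.2%. The Sema4f window held 0 GC boxes and 2 CCAAT boxes at 46.0% GC. A GC box stood in 32.7% of 32851 windows of this length, a CCAAT box in 33.8%, a TATAAA motif in 12.4% and a CACGTG motif in 6.0%. Among 37 windows of 26 members, these counts were 27, 7, 0 and 2. The median GC content of all windows was 52.4%. A match describes the letters of a window and is no binding site.

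Several more members lay low in the bladder without passing. The membrane ligands Sema4d, a ligand of Plxnb1, and Sema5b had differences from the sinus of -1.47 (SE 0.36, adjusted p = 0.0692) and -2.46 (SE 0.66, adjusted p = 0.0897). Plxnb3, the receptor of Sema5a, differed by -1.74 (SE 0.47, adjusted p = 0.0921), with every bladder array and 1 of 4 sinus arrays under the filter level. From the urethra, Sema4d differed by -1.53 (SE 0.39, adjusted p = 0.0573), Sema4g by -1.66 (SE 0.63, adjusted p = 0.154) and the semaphorin receptor Plxna2 by -1.04 (SE 0.40, adjusted p = 0.159). Sema4d lay at 8.58, 8.37 and 8.68 in the bladder, 10.44, 10.33, 9.71 and 9.59 in the sinus and 10.56, 9.40 and 10.28 in the urethra. All bladder arrays were below both other regions, whose ranges overlapped. Sema5b lay at 5.65, 6.43 and 7.89 in the bladder and 10.03, 9.22, 9.29 and 7.94 in the sinus, with bladder array 8 just below the lowest sinus array.

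By role, the plexins differed most evenly on their chosen probe sets. All 9 were below 0 for bladder minus sinus, with a median of -1.11 against -0.19 over all genes. The other probe set of Plxna1 (1421232_at), over the filter level on 5 arrays, gave 0.66. Centring the arrays on their medians moved the median of all genes to 0.40 and left 7 of the 9 plexins below 0, with a median of -0.53. Quantile normalization moved it to 0.03 and kept all 9 below 0. Membrane ligands were below 0 in 12 of 13 cases (median -0.95), and secreted ligands in 4 of 7 (median -0.20). The 20 ligands had a median of -0.66 and the 11 receptors one of -0.88, each role spanning negative and positive values. Over all 31 members 26 were below 0 with a median of -0.77, where 61.8% of all genes were below 0. Relative to the median of all genes, the members' median was -0.59 as deposited, -0.39 after quantile normalization and -0.59 after median centring.

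For bladder minus urethra, 9 of 9 plexins were below 0 (median -0.97), or 8 of 9 after median centring. The other probe set of Plxna1 gave 0.55. Membrane ligands were below 0 in 10 of 13 cases (median -0.91) and secreted ligands in 4 of 7 (median -0.32). Over all members 24 were below 0 with a median of -0.70, against -0.25 and 63.1% for all genes. Array ranges that did not overlap put 14 members lower and 1 higher in the bladder than in the sinus, where 10.6% and 7.28% of all genes did so. Against the urethra the counts were again 14 and 1, with 22.6% and 12% over all genes. The urethra range lay above the sinus range for 2 members (4.9% of all genes) and below it for 0 (3.32%). The urethra minus sinus median was 0.10 for members and 0.05 for all genes, and 17 of 31 were above 0.

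**Figure D3:**
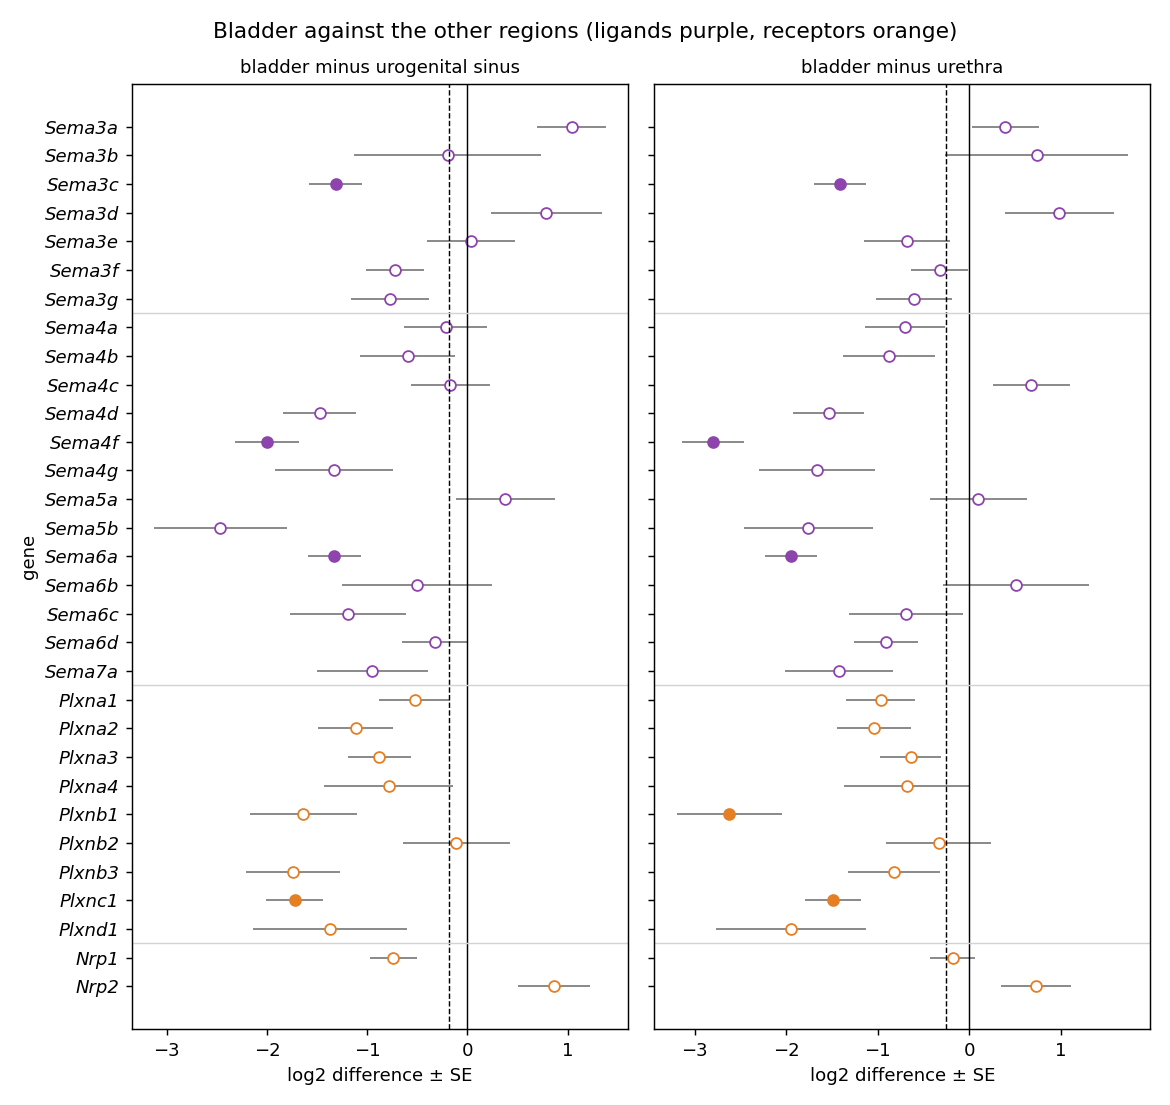
Log2 difference (horizontal axis, with SE) of each member (vertical axis) for bladder minus sinus and bladder minus urethra, with filled points for called genes and a dashed line at the median of all 15019 genes. Plexins lie left of 0 in both panels on the deposited scale. After median centring 2 of 9 turned for bladder minus sinus and 1 of 9 for bladder minus urethra. Sema3a, Sema3d, Sema5a and Nrp2 lie right of 0 in both panels. Points show the chosen probe sets, and others of Plxna1, Sema3d, Sema5a and Nrp2 had the opposite sign in both comparisons. Another of Sema3a did so for bladder minus urethra (-0.45), as did others of Nrp1 (0.56) and Sema4d (0.26).

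Other cell markers moved with these comparisons, and their part in the results was not tested. For bladder minus sinus, 5 of 9 smooth muscle markers were called higher, 1 of 9 neuronal markers (Elavl3) lower and 1 of 12 epithelial markers (Krt5) lower. For bladder minus urethra, 4 of 12 epithelial markers were called lower. The mean of the epithelial markers was 10.68 to 11.49 in the bladder, 11.44 to 12.34 in the sinus and 12.06 to 13.04 in the urethra, and that of the endothelial markers 10.12 to 10.40, 9.63 to 10.52 and 9.85 to 10.18. Sinus array 1 had neuronal markers at the bladder's level, and there Sema4f was 11.54, Plxnc1 11.04, Sema6a 9.95 and Sema3c 13.15, each above all bladder arrays. For Sema4f and Sema3c these were the lowest sinus values. This is 1 array, which also had the highest Hbb-bh1 level (15.04), and a part of neurons in the calls was not tested.

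The calls rested on few arrays. In bladder minus sinus, 0 members were called without bladder array 2, without bladder array 6 or without sinus array 6, against 1 without sinus array 2, 2 without bladder array 8, 2 without sinus array 7 and 5 without sinus array 1, which added Nrp2 as higher. Over all genes 2.54% were called in the main fit. The fits with 0 members called 0.326%, 0.306% and 0.832% of all genes in that order, and the one without sinus array 1 called 4.31%. In bladder minus urethra, Sema4f and Sema6a were called in each of the 10 fits that left out 1 array, and 7 members were called without sinus array 1, 3 without sinus array 6 and 2 without bladder array 2, bladder array 6 or any 1 of the urethra arrays. The share of all genes was 4.33% in the main fit, 8.6% without sinus array 1 and 2.78% without sinus array 6. It was 0.739% to 2.29% in the fits with 2 members. Median centring left 0 called members for bladder minus sinus and 1, Sema4f, for bladder minus urethra, and quantile normalization left 2, Sema3c and Sema4f, in each. Of all genes, median centring called 2.02% and 2.18% in these comparisons, and quantile normalization 1.32% and 2.72%. Titles are written in 3 styles, whose meaning the labels do not give, and within the styles that hold both regions the bladder minus sinus differences were -1.87 and -2.42 for Sema4f, -2.07 and -1.004 for Plxnc1, -1.35 and -1.38 for Sema6a, and -1.37 and -1.32 for Sema3c. All urethra arrays share 1 style with no bladder array, so style and urethra cannot be told apart directly. The fit with style as a term, linked by the reference, called 0 members and 0.366% of all genes for bladder minus urethra. Its differences were -2.48 for Sema4f (SE 0.74, adjusted p = 0.193), -1.69 for Sema6a, -1.43 for Sema3c, -1.94 for Plxnc1 and -3.59 for Plxnb1.

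Further probe sets of the called genes pointed the same way at other sizes. For bladder minus sinus the other probe set of Sema3c gave -2.32, that of Sema4f -1.18 and those of Sema6a up to -2.31, while those of Plxnc1 were as small as -0.65. For bladder minus urethra these were -2.71, -1.78, -2.93 and -0.18, and that of Plxnb1 was -1.54. Among uncalled genes, the other probe set of Sema4d gave -0.26 against the sinus and 0.26, the opposite sign, against the urethra. The other probe set of Sema5b gave -0.84 and that of Plxnb3 -0.48 against the sinus, and another of Plxna2 gave -0.50 against the urethra. Between urethra and sinus, other probe sets gave as little as 0.24 for Sema6a and from -0.98 to -0.06 for Nrp1.

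On their chosen probe sets the neuropilins pointed in opposite directions between bladder and sinus, and neither passed in the main fit. Nrp1, the co-receptor of Sema3a, lay at 13.64, 13.24 and 13.28 in the bladder, 13.75, 14.12, 14.52 and 14.13 in the sinus and 13.87, 13.29 and 13.55 in the urethra. Its bladder range was below its sinus range, and neither bladder minus sinus (-0.74, adjusted p = 0.139) nor urethra minus sinus (-0.56 (SE 0.23, adjusted p = 0.454)) passed. Nrp2, the co-receptor of Sema3f, lay at 14.61, 14.29 and 13.99 in the bladder, 14.50, 12.997, 13.34 and 12.89 in the sinus and 13.57, 13.40 and 13.73 in the urethra. Bladder values were above the urethra, while sinus array 1 reached the bladder's range and the other 3 sinus arrays did not. Bladder minus sinus was 0.86 for Nrp2, an uncalled difference (adjusted p = 0.26). Another probe set of Nrp2 (1447343_at) gave -1.56 against the sinus and -1.05 against the urethra, the opposite sign. Without both arrays numbered 1, Nrp1 was called lower and Nrp2 higher in bladder minus sinus, where 5.1% of all genes were called.

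Against the newborn reference, a few ligands and 1 co-receptor stood higher in the embryonic regions. The 3 comparisons share the reference, which differs from the regions in age, in tissue and in the transgene, and these cannot be told apart. The mean of its 3 arrays entered the fit as 1 sample, and with the arrays as 3 samples the counts of called members became 12, 11 and 12 in bladder, sinus and urethra, of which 6, 2 and 1 were lower. With that setting 35.9%, 28.8% and 27.9% of all genes were called. In the bladder 4 members were higher (Sema3a, Sema3e, Sema4c and Nrp2) and 0 lower, where 5.82% of all genes were higher and 11.2% lower. In the sinus 4 were higher (Sema3e, Sema3f, Sema4c and Sema4f) and 0 lower, against 4.62% and 9.2%. In the urethra 4 were higher (Sema3a, Sema3e, Sema3f and Sema4f) and 0 lower, against 4.36% and 8.87%. At an unadjusted p under 0.05, 11 members passed in each comparison, beside 31.3%, 25.9% and 26.0% of all genes.

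Sema3e, the ligand of Plxnd1 in vessel patterning, had the largest difference of the called members. Its level (1442226_at, chromosome 5) was 10.14, 10.99 and 10.55 on the bladder arrays, 10.65, 9.50, 10.52 and 11.41 on the sinus arrays, 10.75, 11.71 and 11.24 on the urethra arrays and 9.71, 6.70 and 5.65 on the reference arrays. Reference array 1 lay within the sinus range, array 2 was under the filter level and array 3 was at the floor. The difference from the reference was 3.21 (SE 0.67, adjusted p = 0.00965) for the bladder, 3.17 (SE 0.65, adjusted p = 0.00962) for the sinus and 3.88 (SE 0.67, adjusted p = 0.00399) for the urethra. Set against the 1 reference array of the same title style, it was 0.86 and 3.84 for the bladder, 0.52 and 4.70 for the sinus and 5.58 for the urethra. Another probe set of Sema3e (1419717_at) gave -0.19, -0.97 and 0.32 in the same order of regions, and the mean of its probe sets was called in the urethra only.

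Sema3a, the classical growth cone collapsing ligand, lay at 12.90, 12.92 and 13.60 on the bladder arrays, 12.35, 11.77, 11.51 and 12.78 on the sinus arrays, 13.14, 12.42 and 12.67 on the urethra arrays and 11.39, 10.56 and 10.65 on the reference arrays. Its region ranges (1420416_at, chromosome 5) were all above the reference range. The difference was 2.27 (SE 0.52, adjusted p = 0.0148) for the bladder and 1.88 (SE 0.52, adjusted p = 0.0394) for the urethra, and 1.23 for the sinus, which did not pass (adjusted p = 0.149). The bladder was the highest region, without overlap with the sinus, though 1.04 between them was not called (adjusted p = 0.153). Within title styles the bladder minus reference values were 1.52 and 3.04, and other probe sets gave 1.47 or more in the bladder and 1.28 or more in the urethra. The mean of the probe sets was not called in either region. The urethra call was also lost with median centring, without both arrays numbered 1, and without bladder array 2 or 6, sinus array 2, urethra array 1 or 6, or reference array 2 or 3.

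Sema3f, a ligand of Nrp2, lay at 9.91, 9.69 and 9.16 on the bladder arrays, 10.61, 10.43, 10.12 and 10.07 on the sinus arrays, 9.75, 9.79 and 10.19 on the urethra arrays and 9.33, 8.49 and 7.14 on the reference arrays. Its values (1438947_x_at, chromosome 9) were above the reference in the sinus and urethra and touched it in the bladder at array 8. The difference was 1.99 (SE 0.42, adjusted p = 0.0118) for the sinus, 1.59 (SE 0.44, adjusted p = 0.0394) for the urethra and 1.27 (SE 0.44, adjusted p = 0.0775), not called, for the bladder. Another probe set (1425840_a_at) gave 3.05 for the urethra and -0.19 for the bladder. For bladder minus urethra the other kept probe sets gave -3.24 and -2.04, against -0.32 on the chosen one. For urethra minus sinus they gave 1.36 and 0.42, against -0.40. With the mean of the probe sets, Sema3f was called lower in bladder minus urethra, where 3.89% of all genes were called. Within title styles the sinus minus reference values were 1.06 and 1.58, and the urethra value was 2.77. Without reference array 3 the sinus and urethra calls were both lost. The urethra call stood in 15 of 25 alternatives. It was lost with median centring, with no floor, and without bladder array 2 or 6, sinus array 2 or 6 or any 1 urethra array, with values of 0.9998 to 2.77 over all settings.

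Sema4c, a membrane ligand of Plxnb2, lay at 12.27, 12.02 and 10.70 on the bladder arrays, 11.90, 11.36, 12.19 and 11.90 on the sinus arrays, 10.82, 10.66 and 11.48 on the urethra arrays and 10.11, 9.83 and 7.11 on the reference arrays. Its only kept probe set (1433920_at, chromosome 1) was above the reference on every region array. The difference was 2.65 (SE 0.60, adjusted p = 0.0146) for the bladder, 2.82 (SE 0.58, adjusted p = 0.00991) for the sinus and 1.97 (SE 0.60, adjusted p = 0.0602), not called, for the urethra. Reference array 3 was under the filter level, and without it neither call stood, at 1.61 for the bladder (adjusted p = 0.0889) and 1.73 for the sinus (adjusted p = 0.0671).

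Sema4f, low in the bladder, was higher than the reference in the sinus by 1.92 (SE 0.47, adjusted p = 0.0227) and in the urethra by 2.72 (SE 0.48, adjusted p = 0.00454). Bladder minus reference was -0.08 (adjusted p = 0.927), which did not pass. Within title styles the sinus minus reference values were 1.26 and 3.12, and the urethra value was 2.51. The other probe set gave 1.05 in the sinus and 1.65 in the urethra. The sinus call was lost with median centring, with the mean of the probe sets, and without sinus array 6 or reference array 2. The urethra call stood in all 25 alternatives. Nrp2 (1435349_at, chromosome 1) was 11.68, 12.12 and 12.65 in the reference, below every region array, and the bladder difference was 2.14 (SE 0.55, adjusted p = 0.0248). The sinus and urethra differences of 1.28 and 1.41 were not called (adjusted p = 0.158 and 0.132). The bladder call of Nrp2 was lost with the mean of the probe sets, and without bladder array 2 or bladder array 6. Another probe set of Nrp2 (1447343_at) gave -1.29 in the bladder.

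**Figure D4:**
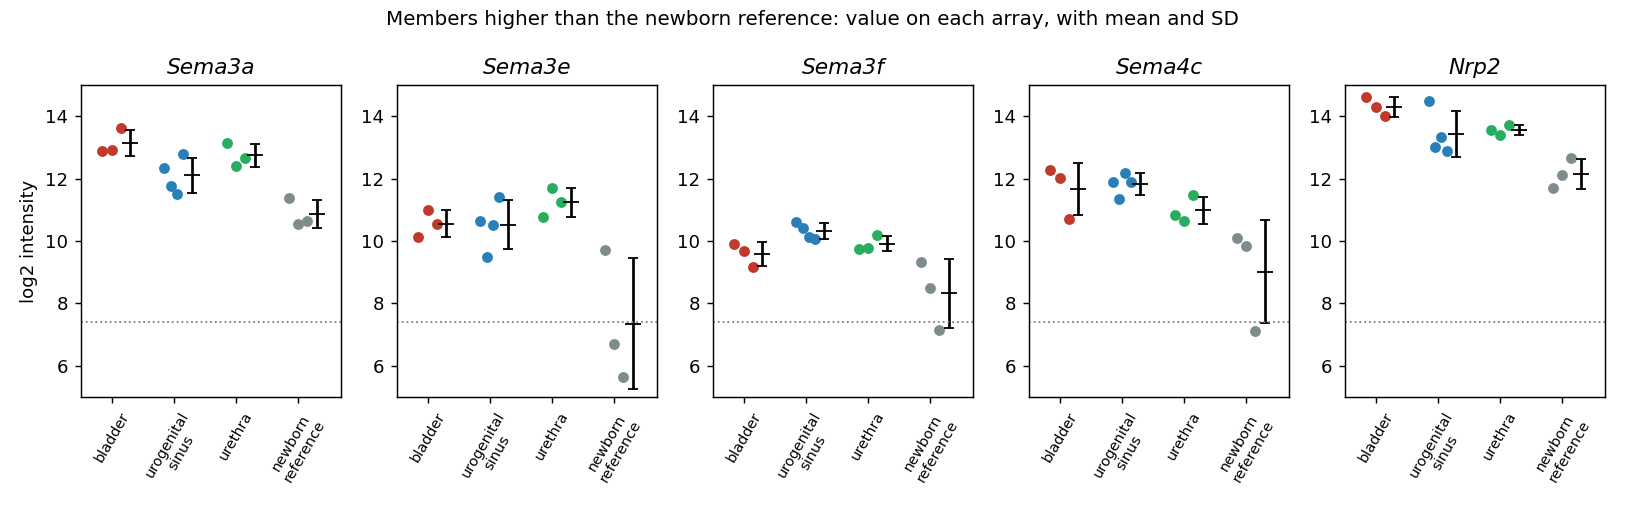
Level on each array (points, log2 intensity) of 5 members called higher than the newborn reference in at least 1 region, with the group mean and SD (bars) and the filter level of 7.39 (dotted line). The 3 reference points of Sema3e spread from 5.65 to 9.71, while those of Nrp2 lie between 11.68 and 12.65.

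Among uncalled members, Sema5a, a membrane ligand of Plxnb3, was 2.27 (SE 0.75, adjusted p = 0.0669) in the bladder, 1.89 (SE 0.73, adjusted p = 0.127) in the sinus and 2.17 (SE 0.75, adjusted p = 0.0933) in the urethra against the reference. Its level was 12.43, 12.54 and 13.20 on the bladder arrays, 11.13, 11.92, 13.18 and 13.15 on the sinus arrays, 12.41, 12.29 and 13.16 on the urethra arrays and 11.08, 10.74 and 9.52 on the reference arrays, above the reference on every region array. Other probe sets of Sema5a gave values from 0.93 to 3.46 over the 3 regions, all of 1 sign. In the bladder Plxnc1 was -1.26 (SE 0.43, adjusted p = 0.0714) against the reference, and a further probe set gave -2.04. In the sinus the Sema6a receptor Plxna2 was 1.41 (SE 0.55, adjusted p = 0.133), where a further probe set gave 2.92, and Plxna3, which carries class 3 signals, was 1.15 (SE 0.46, adjusted p = 0.143). Sema3b, a secreted ligand, had the largest gap of any member in each region, though none was called in the main fits. It was -3.44 in the bladder, -3.25 in the sinus and -4.18 (SE 1.41, adjusted p = 0.0857) in the urethra. Another probe set gave -2.75, -2.51 and -2.81. Sema3b lay at 10.78, 11.06 and 12.07 in the reference and 8.97, 6.91 and 7.70 in the bladder. It lay at 9.24, 9.13, 8.19 and 5.65 in the sinus and 7.92, 5.65 and 7.78 in the urethra, where 5.65 is the floor.

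None of the 11 receptors passed in the sinus or the urethra against the reference (0 called, by limma). All 11 were above 0 for sinus minus reference (median 0.74 against -0.01 for all genes) and 9 for urethra minus reference (median 0.91 against 0.06), or 11 after median centring and 10 after quantile normalization. In the urethra Nrp1 (-0.23) and Plxnb3 (-0.15) were below 0. Other probe sets differed in sign: all 3 of Plxnc1 were below 0 in both regions, and that of Plxna1 gave -1.53 in the sinus and -1.43 in the urethra. Another of Nrp1 (1457198_at) gave -1.19 in the sinus, and another of Nrp2 (1447343_at) gave -0.24 in the urethra. That of Plxnb3 gave 0.52 in the urethra. For bladder minus reference 5 receptors were above 0 on the deposited scale, 7 after quantile normalization and 8 after median centring, with a median of -0.07 against -0.27. The secreted ligands had medians of 1.27, 1.23 and 1.19 in bladder, sinus and urethra, and the membrane ligands -0.83, 0.38 and 0.48. Reference arrays of the same pooled RNA differed by an SD over 1 for 7 members. Skeletal muscle markers, at a mean of 6.19 to 9.50 in the regions and 13.62 to 13.84 in the reference, were called lower in 6, 4 and 4 of 6 cases for bladder, sinus and urethra, and macrophage markers in 4, 3 and 1 of 8. Their part in the members' results was not tested.

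The count of members called against the reference moved with the settings, and so did the share of all genes called. In the main fits that share was 17% in the bladder, 13.8% in the sinus and 13.2% in the urethra. With 3 reference samples and no other change it was 12, 11 and 12 in bladder, sinus and urethra. The fit with title style as a term also entered the reference as 3 samples, and called 9 members in each region. The shares of all genes were then 28.3%, 22.4% and 20%. Without reference array 3 the count was 3 in the bladder and 2 in the sinus and the urethra (15.7%, 12.5% and 12.8% of all genes). In the bladder it was 6 without reference array 1 (21%), and 7 with either median centring (15.2%) or Theiler stage as a term (21.3%). In the urethra it was 7 without sinus array 1 (16.8%). It was 2 there without bladder array 2, bladder array 6, sinus array 2, urethra array 1 or urethra array 6 (10.5% to 12.6%). In the sinus the mean of the probe sets called 2 (13%). Sema3e and Sema4f in the urethra were called in each of the 25 alternatives.

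The 12 textbook ligand and receptor pairs were set side by side, with no test of a pair. For bladder minus urethra, Sema4d and Plxnb1 were both low at -1.53 and -2.62. Sema6a was -1.95 beside -1.04 for Plxna2 and -0.68 for Plxna4. Sema3e and Plxnd1 stood at -0.68 and -1.94. Other pairs pointed apart: Sema3c was -1.31 beside 0.86 for Nrp2 in bladder minus sinus, and Sema3a was 1.04 beside -0.74 for Nrp1. Another probe set of Nrp2 (1447343_at) gave -1.56 there. Sema4c and Plxnb2 both had small differences there, at -0.17 and -0.11.

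The remaining secreted ligands are Sema3d and Sema3g. Sema3d, an axon guidance ligand, lay at 12.14, 11.81 and 12.03 on the bladder arrays, 10.59, 10.36, 11.97 and 11.89 on the sinus arrays, 10.57, 10.17 and 12.29 on the urethra arrays and 10.43, 10.64 and 8.40 on the reference arrays. Its bladder arrays were alike, while the sinus and urethra arrays each fell into lower and higher values. The chosen probe set of Sema3d (1429459_at) gave 0.79 for bladder minus sinus, 0.98 for bladder minus urethra and 2.17 for bladder minus reference. Its other probe set (1453148_at) gave -0.26, -0.19 and 0.03 in the same order. Sema3g, an endothelial ligand of Nrp2, lay at 7.40 to 7.90 in the bladder, 7.97 to 9.39 in the sinus, 8.03 to 8.44 in the urethra and 7.89 to 9.26 in the reference. The bladder range was below both other regions, and neither difference passed. Sema3a, Sema3c, Sema3d and Sema3e all lie on chromosome 5. Sema3c was low in the bladder, while Sema3a and Sema3d had their highest group mean there on the chosen probe sets.

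The remaining membrane ligands did not pass in the fits described so far, though Sema4a was called lower than the reference in bladder and sinus with title style as a term or with 3 reference samples. Sema7a was called in the bladder with 3 reference samples, and Sema6d for bladder minus urethra without both arrays numbered 1. Sema4a, which also acts in immune cells, lay at 9.10 to 10.17 in the bladder, 9.19 to 10.34 in the sinus, 9.75 to 10.88 in the urethra and 11.10 to 11.37 in the reference, the last above all regions. Sema4b lay at 8.90 to 10.04, 9.36 to 11.11, 10.12 to 10.77 and 9.61 to 10.39 in the same order, and Sema4g at 10.27 to 10.32, 10.89 to 12.90, 11.11 to 13.34 and 10.33 to 11.14. For Sema4g the bladder arrays were within 0.03 (SD) of each other, and the widest spread came from sinus array 1 and urethra array 1.

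The other class 6 ligands act through A-type plexins. Sema6b lay at 5.65 to 8.30 in the bladder, 6.18 to 8.39 in the sinus, 5.65 to 7.63 in the urethra and 7.81 to 8.74 in the reference. Sema6c lay at 8.01 to 9.31, 8.92 to 11.01, 8.88 to 10.31 and 8.96 to 10.32, and Sema6d, a ligand of Plxna1, at 11.62 to 11.89, 11.40 to 12.52, 12.05 to 13.08 and 11.79 to 12.77, in the same order. The Sema6b region ranges overlapped, with arrays at the floor in bladder and urethra, and its urethra range lay below its reference range. The Sema6d bladder range lay below the urethra range. Sema7a, a lipid-anchored ligand, lay at 6.93 to 8.23 in the sinus, 6.72 to 8.92 in the urethra and 6.93 to 9.26 in the reference.

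Among the A-type plexins, which carry class 3 and class 6 signals, Plxna1 lay at 10.22 to 10.47 in the bladder, 10.58 to 11.73 in the sinus, 10.91 to 11.94 in the urethra and 10.01 to 10.33 in the reference. Plxna2 lay at 10.59 to 10.97, 11.31 to 13.001, 11.54 to 11.97 and 9.91 to 11.18, and Plxna3 at 9.81 to 10.08, 10.19 to 11.49, 10.30 to 10.73 and 9.14 to 10.03. For these 3 genes the bladder range lay below the sinus and urethra ranges, and sinus array 1 was the highest sinus value of each. Plxna4, a neuronal receptor, lay at 7.95 to 8.02, 7.78 to 9.77, 7.36 to 10.02 and 7.52 to 8.93. Its lowest sinus and urethra values were on sinus array 1 and urethra array 1. These arrays had the lowest neuronal marker means of their own regions, 7.08 and 7.20. The lowest mean of all arrays was 6.89, on bladder array 6, where Plxna4 was 7.95. A part of neurons in the Plxna4 level was not tested.

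Plxnb2 lay at 10.67 to 12.17 in the bladder, 10.49 to 12.63 in the sinus, 11.26 to 12.25 in the urethra and 11.10 to 11.77 in the reference, and its groups overlapped. Plxnd1, the vascular receptor of Sema3e, lay at 10.17, 9.20 and 9.002 on the bladder arrays, 12.89, 11.22, 10.06 and 9.13 on the sinus arrays, 11.98, 11.36 and 10.88 on the urethra arrays and 10.50, 10.79 and 10.11 on the reference arrays. The sinus alone spanned 9.13 to 12.89, and the bladder was below the urethra without overlap. Plxnb3 lay at 8.83, 7.74, 7.74 and 7.19 in the sinus, 7.18, 7.52 and 6.19 in the urethra and 5.85, 8.77 and 6.72 in the reference.

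Other genes of the pathway were taken from a list of 50, of which 46 were tested. For bladder minus sinus 3 were lower and 0 higher, where 1.73% and 0.812% of all genes were: the adhesion co-receptors Nrcam (-2.87, adjusted p = 0.00387) and L1cam (-2.78, adjusted p = 0.0407), and Dpysl4 (-1.69, adjusted p = 0.0486), a cytoplasmic mediator. In the bladder against the urethra, with 2.62% of all genes lower and 1.71% higher, Nrcam was lower (-1.80, adjusted p = 0.023) and 3 were higher: Kdr (2.04, adjusted p = 0.0488), a VEGF receptor, Itgb1 (1.59, adjusted p = 0.0435), the integrin partner of Sema7a, and Vegfd (2.01, adjusted p = 0.0317), a VEGF ligand. For urethra minus sinus 0 of 46 passed. Nrcam, L1cam and Dpysl4 are known from neurons. The neuronal marker mean was 6.89 to 8.66 in the bladder, 7.08 on sinus array 1 and 10.71 to 12.42 on the other 3 sinus arrays, and its part in these calls was not tested. The median of the 46 genes was -0.23 for bladder minus sinus, beside -0.19 for all genes.

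Against the reference 0 pathway genes were higher, and 5, 3 and 3 of 46 were lower in bladder, sinus and urethra, where 11.2%, 9.2% and 8.87% of all genes were lower. Timd2, a receptor of Sema4a, was lower in all 3 (adjusted p = 2.57e-05, 1.95e-05 and 4.97e-05), by at least 23.6-fold against the filter level, since every region array was under it. Chl1, an adhesion co-receptor, was lower at -2.44, adjusted p = 0.0325, -2.50, adjusted p = 0.0298 and -3.02, adjusted p = 0.0146. Nrcam was lower in the bladder (-3.44, adjusted p = 0.000853) and the urethra (-1.64, adjusted p = 0.0473). Crmp1, a semaphorin signal mediator (-3.32, adjusted p = 0.0464), and the protease Pcsk6 (-2.62, adjusted p = 0.0293) were lower in the bladder, and Mical2, an actin-oxidizing enzyme, in the sinus (adjusted p = 0.0434), by at least 1.99-fold against the filter level.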

How the data were processed

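Biotin-labelled RNA, amplified in 2 rounds, was measured on 13 Affymetrix arrays. The table the authors deposited holds 45101 probe sets as linear intensity. GCOS, the array maker's software, is named in the submitters' processing notes, and any other upstream step is not given in the sources used here. Every array had a 2% trimmed mean of 1500, so no further scaling was applied. Amplification in 2 rounds favours 3' ends, which affects probe sets far from that end. The number of arrays limits the precision.

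Intensities were floored at the 20th percentile (50.23, log2 5.65) and log2 transformed. Of the probe sets, 34945 carried 1 gene symbol, 932 several and 9160 none, and 64 were controls. Single-symbol probe sets over the 40th percentile (167.76, log2 7.39) on at least 3 arrays were kept (27463), and the one with the highest mean stood for each of 15019 genes. Symbols came from the platform annotation, and all 31 members matched the RefSeq gene table by Entrez identifier. The chosen probe set of 6 members has a suffix (_a_at, _s_at or _x_at) that marks probes not unique to 1 transcript. Those of Sema3f, Sema4a and Sema4f end in _x_at. The Sema4f set without such a suffix (1419328_at) gave smaller differences, -1.18 for bladder minus sinus and -1.78 for bladder minus urethra.

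The test was limma 3.58.1 (R 4.3.3), using eBayes with an intensity trend. Adjusted p-values are two-sided, by the Benjamini-Hochberg method over 15019 genes, and a gene was called under 0.05. The 10 region arrays shared 1 fit with 7 residual degrees of freedom. Against the reference, the mean of its 3 arrays, which repeat 1 pooled RNA, entered as 1 sample that is assumed to vary like the regions. The fits with 3 reference samples and those with title style as a term entered these arrays separately. Levels were described for every member. Test results are given for each called member and, per comparison, for the 3 uncalled members with the smallest p. Values of other probe sets are given beside called members.

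The settings varied were the scaling (quantile, or centred on each array's median), the floor, the filter, the mean of probe sets, no intensity trend, Theiler stage, title number and title style as terms, the arrays in the fit, and each array left out. Leaving out a reference array and the stage comparison were added after seeing the data. Same-number arrays of different regions had correlated deviations of -0.17 to 0.36 over 7 pairs, which did not establish the title numbers as pairs. The fits were tested on simulated data. The members and lists were chosen with earlier results of these data known.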

Additional observations from a re-analysis of the deposited data

Results flagged for a closer look

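Plxna1 stood apart on sinus array 1, at 11.73 against 10.58 to 10.73 on the other 3 sinus arrays. Sema3g did so on the same array, at 9.39 against 7.97 to 8.15. In both cases the gap to the nearest array exceeded the critical value of Dixon's outlier test for 4 samples. The sinus was the only group large enough for this test, which was run on 31 members, and chance marks about 1 group in 20. Sinus array 1 also had the lowest neuronal marker mean (7.08) and the highest Hbb-bh1 level (15.04) of the sinus arrays, and their part was not tested.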

How the results depend on the processing

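The number of called members depended on the setting, and among the called members and the 3 uncalled members with the smallest p per comparison, 1 difference reversed: Plxna2 in bladder minus urethra, 0.0012 with title style as a term. Over all 31 members, 5 were above 0 for bladder minus sinus as deposited, 7 after quantile normalization and 12 after median centring. For bladder minus urethra these were 7, 8 and 10, and for bladder minus reference 11, 15 and 19. For bladder minus sinus (4 called) the count was 2 with quantile normalization, 0 with median centring, 2 with the title number as a replicate block, 2 with only the 2 regions compared, and 0 to 5 with 1 array left out. The share of all genes called was 2.54% in the main fit and 1.32%, 2.02%, 0.879%, 1.57% and 0.306% to 4.31% in these. For bladder minus urethra (5 called) the count was 2, 1, 1 and 3 in the same order, 0 with title style as a term, and 2 to 7 with 1 array left out. Among all genes 4.33% were called in the main fit, then 2.72%, 2.18%, 0.932%, 4.54%, 0.366% and 0.739% to 8.6%. For urethra minus sinus the count was 0 under every setting tried, the replicate block included, with at most 0.146% of all genes called. Against the reference, the fit with title style as a term also entered the 3 reference arrays as 3 samples. For the bladder against the reference (4 called) the count was 7 with median centring, 7 with Theiler stage as a term, 9 with title style as a term, 12 with the 3 reference arrays as 3 samples, and 3 to 6 with 1 array left out. There 17% of all genes were called in the main fit, and 15.2%, 21.3%, 28.3%, 35.9% and 11.8% to 22.7% in these settings. For the sinus against the reference (4 called) the count was 2 with the mean of the probe sets, 9 with title style, 11 with 3 reference samples, and 2 to 6 with 1 array left out. All-gene shares were 13.8% in the main fit, and 13%, 22.4%, 28.8% and 10.9% to 18.2% in these settings. For the urethra against the reference (4 called) the count was 9, 12 and 2 to 7 for the last 3 of these settings. All-gene shares were then 20%, 27.9% and 10.5% to 16.8%, beside 13.2% in the main fit. A replicate block was not fitted against the reference, whose titles share no replicate number with any region array. The share of called genes that were higher in bladder minus sinus was 31.9% as deposited, 48.2% after quantile normalization and 71.1% after median centring. In bladder minus urethra it was 39.5%, 54.9% and 72.6%, and in bladder minus reference 34.2%, 44.8% and 57.7%. None of the 21 called member results reversed, and 2 were called in every alternative. The array number limits the precision, and levels near the floor of 5.65 have no order.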

Other observations

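On its chosen probe set (1429459_at), Sema3d separated the sinus and urethra arrays by Theiler stage, the age by body form that the labels give. The other probe set of Sema3d was not compared by stage. In the sinus it lay at 10.59 and 10.36 on the stage 21 arrays and at 11.97 and 11.89 on the stage 22 arrays. In the urethra the stage 21 arrays were at 10.57 and 10.17 and the stage 22 array at 12.29. The bladder did not share the step, with 12.14 at stage 21 and 11.81 and 12.03 at stage 22. A comparison of stage 22 with stage 21 with region as a covariate, chosen after seeing the data, gave Sema3d a log2 difference of 1.11 (adjusted p = 0.098, limma). In that comparison limma called 0 of 15019 genes, and 3829 had an unadjusted p under 0.05. The members with the smallest adjusted p were Sema5a at 1.06 (0.0801), Sema3c at 0.55 (0.0804), Plxnd1 at -1.59 (0.0876) and Sema7a at -1.10 (0.0989), beside Sema3d. Whether the stage step differs between regions was not tested.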
